A study of Mus musculus with 18 samples.

Results

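The interleukin-6 (IL-6) family of cytokines was followed through 10 genes, taken by name from a table of 55401 gene identifiers. They were 4 ligands (Il6, Il11, Lif and Clcf1), the shared signalling receptor Il6st (gp130), 3 partner receptors (Il6ra, Lifr and Osmr), the transcription factor Stat3 and its feedback inhibitor Socs3. All 10 had an identifier, and all 10 passed the filter on low counts in every comparison. RNA-seq had been run on mouse embryonic fibroblasts (MEFs), primary cultures made from embryos after the head and viscera were removed, in 18 libraries that form 6 groups of 3. In the S6K1 series, S6K1 WT MEFs carried an empty vector (S6K1 WT EV) or constitutively expressed RAS (S6K1 WT RAS), and S6K1 KO MEFs, which lack ribosomal S6 kinase 1, expressed RAS (S6K1 KO RAS). The groups of the S6K1/S6K2 series were S6K1/S6K2 WT EV, S6K1/S6K2 WT RAS and S6K1/S6K2 DKO RAS, the last lacking both S6 kinases. RAS came from a retroviral vector with a constitutively active HRAS, a standard way to drive primary fibroblasts into senescence.

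The design sets limits on what each group can show. S6K1 WT and KO MEFs were prepared as littermates, whereas the WT controls of the DKO came from WT mothers at an earlier stage of the breeding. No KO or DKO culture with empty vector is among these libraries, so a difference between KO or DKO RAS and WT RAS cannot be told apart from one that was there before RAS. The RAS and empty vectors also have different backbones. The S6K1 and S6K2 KO mice were of the C57BL/6 strain, the sex of the embryos and the time between transduction and harvest are not given in the sources used here, and p-values measure the spread between cultures of 1 study.

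IL-6 family cytokines signal by bringing gp130 together with a second chain. IL-6 uses IL6RA, IL-11 uses its own receptor chain, leukaemia inhibitory factor (LIF) pairs gp130 with LIFR, and oncostatin M pairs it with OSMR. Cardiotrophin-like cytokine factor 1 (CLCF1) acts through CNTFR, LIFR and gp130. The receptor-bound JAK kinases phosphorylate STAT3, which moves to the nucleus and switches on SOCS3, and SOCS3 in turn shuts off gp130. In senescent fibroblasts these cytokines belong to the senescence-associated secretory phenotype (SASP), the mixture of factors that such cells release.

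The stretches of DNA just before the transcription starts are shown for the 3 ligands best known from senescence and for the feedback gene, because motif letters of factors that act after RAS, cytokine and STAT3 signals can be looked for in them. They are 250 bases long, from RefSeq on GRCm38.p6, written 5′ to 3′ along the gene, and capitals mark motif matches. The letters searched on both strands were TGANTCA (AP-1), TGACGTCA (CRE) and TTCNNNGAA (STAT), and for NF-kappaB GGGA, any base, TT, any base, CC. Their matches did not overlap in these windows. The windows were chr5:30012864-30013113 (plus strand) for Il6, chr7:4778142-4778391 (minus strand, the second of 2 annotated starts) for Il11, chr11:4257318-4257567 (plus strand) for Lif and chr11:117969367-117969616 (minus strand) for Socs3.
Il6: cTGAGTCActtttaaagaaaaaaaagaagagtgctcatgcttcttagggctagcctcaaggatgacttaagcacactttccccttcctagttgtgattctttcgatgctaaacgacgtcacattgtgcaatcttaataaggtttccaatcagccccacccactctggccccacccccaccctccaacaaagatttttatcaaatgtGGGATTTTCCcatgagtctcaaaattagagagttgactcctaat
Il11: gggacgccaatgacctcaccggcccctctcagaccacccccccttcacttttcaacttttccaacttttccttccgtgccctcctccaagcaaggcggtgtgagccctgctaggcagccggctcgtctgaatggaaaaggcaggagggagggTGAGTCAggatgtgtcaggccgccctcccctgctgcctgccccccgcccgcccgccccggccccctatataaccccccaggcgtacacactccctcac
Lif: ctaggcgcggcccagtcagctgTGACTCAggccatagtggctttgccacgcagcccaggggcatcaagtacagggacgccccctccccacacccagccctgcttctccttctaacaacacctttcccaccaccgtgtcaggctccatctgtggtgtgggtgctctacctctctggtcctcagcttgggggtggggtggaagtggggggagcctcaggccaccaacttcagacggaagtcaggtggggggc
Socs3: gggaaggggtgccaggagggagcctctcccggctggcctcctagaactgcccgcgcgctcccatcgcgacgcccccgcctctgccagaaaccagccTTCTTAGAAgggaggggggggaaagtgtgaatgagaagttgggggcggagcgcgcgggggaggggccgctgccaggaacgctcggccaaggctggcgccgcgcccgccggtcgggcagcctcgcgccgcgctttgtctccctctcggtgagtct

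All 3 cytokine windows held an AP-1 match: TGAGTCA began 249 bases before the start of Il6, TGAGTCA began 98 bases before the second start of Il11, and TGACTCA began 228 bases before the start of Lif. AP-1 letters occurred in 6.75% of 32851 promoters. Il6 also held the NF-kappaB letters GGGATTTTCC, 44 bases before its start, a match found in 0.98% of promoters. The Socs3 window held a STAT match, TTCTTAGAA, 154 bases before its start, against 7.02% of promoters. The first start of Il11 and the windows of Il6st, Il6ra, Lifr, Osmr and Stat3 held none of the 4 motifs, and CRE letters were in 1.55% of promoters and in none of these. Such matches describe letters and are not shown to be bound sites. For the remaining ligand, Clcf1, no promoter sequence was at hand, so it was not searched. The Lif gene lies at chr11:4257568-4272514, 16541 bases beyond Osm, the gene of oncostatin M, another ligand of the family.

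Total counts ran from 8319445 to 14402442 per library, and 3 counts, the floor used here, were worth 0.208 to 0.361 CPM, the count scaled to a common library size (counts-per-million). Levels are given after TMM scaling over all 18 libraries. Differences are log2 fold changes from edgeR's quasi-likelihood test with Benjamini-Hochberg adjustment over all genes tested and a threshold of 0.05. Rps6kb1, which encodes S6K1, was at 63.9 to 104 CPM in the 12 WT libraries and at 23.8 to 39.2 CPM in the 6 KO and DKO libraries, so some transcript was still counted. Rps6kb2, which encodes S6K2, was at 19.7 to 30.1 CPM in the other 15 libraries and at 2.65 to 2.998 CPM in the 3 DKO libraries. The 9 fibroblast markers summed to 29577 to 46866 CPM in the EV libraries and to 13105 to 17614 CPM in the RAS libraries, with 4 of 9 called lower in WT RAS against WT EV in each series (and 1 higher in the S6K1 series); their part in the falls of Il6st, Osmr and Stat3 with RAS was not tested. The 6 lymphocyte markers summed to at most 0.421 CPM. The 10 macrophage markers summed to 2074 to 3279 CPM in replicates 1 and 2 of S6K1 WT EV and S6K1 WT RAS and to 841 and 1138 CPM in replicate 1 of S6K1/S6K2 WT RAS and WT EV, against 65.0 to 750.2 CPM in the other 12 libraries. The 6 endothelial markers stayed between 7.74 and 14.1 CPM, and the 6 epithelial markers went from 1.30 to 10.4 CPM in the EV libraries to 57.5 to 169 CPM in the RAS libraries, mostly the keratin gene Krt18. In bulk samples fewer cells of a type and less RNA per cell cannot be told apart.

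RAS raised 2 of the 4 ligands and lowered the shared receptor chain and Stat3, and the rise of the ligands was alike in direction in both series. In the S6K1 series 5 of the 10 genes passed the test between S6K1 WT RAS and S6K1 WT EV, Il11 and Lif higher and Il6st, Osmr and Stat3 lower. Over all 14036 genes tested there, 13.2% were called, 7.15% higher and 6.09% lower. Of the 10, 3 passed in the S6K1/S6K2 series, Il11 and Lif higher and Stat3 lower, where 26.3% of 13881 genes were called, 13.5% higher and 12.7% lower. The median log2 fold change of the 10 genes was -0.39 in the S6K1 series and -0.01 in the S6K1/S6K2 series, beside 0.00 and -0.02 over all genes tested.

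**Figure D1:**
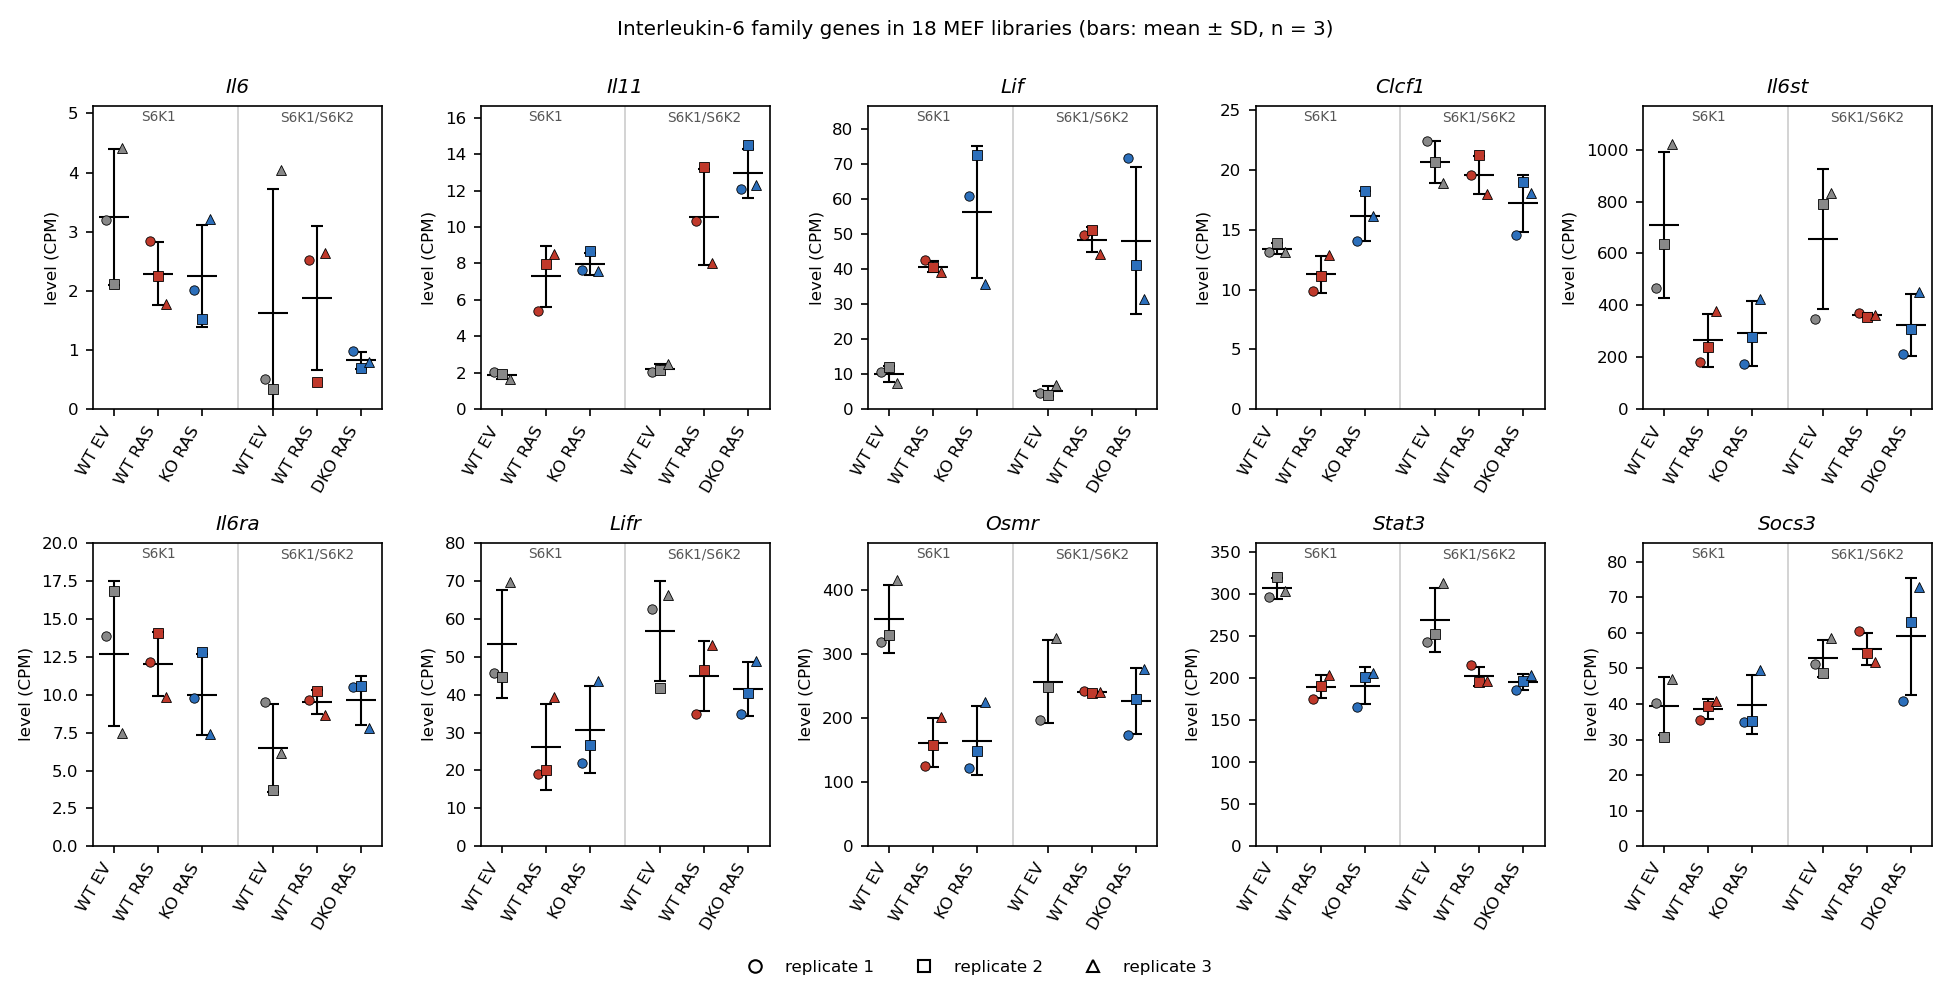
Level of each of the 10 genes (CPM, linear axes from 0) in every library, by group, with the S6K1 series on the left and the S6K1/S6K2 series on the right of each panel. Symbols mark the replicate number and bars the mean ± SD of 3 libraries, cut at 0 where they would pass below it; every RAS library lies above every EV library of its series for Lif and Il11, and below for Stat3.

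Lif, a cytokine known for keeping mouse embryonic stem cells undifferentiated, rose with RAS in both series. Its level in S6K1 WT EV was 10.8, 12.1 and 7.45 CPM, and in S6K1 WT RAS it was 42.6, 40.6 and 39.2 CPM. All 3 RAS libraries were far above all 3 EV libraries. Lif rose 3.98-fold, a log2 fold change of 1.99 ± 0.27 (SE, n = 3 against 3, adjusted p = 0.00164).

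Lif in the S6K1/S6K2 series was at 4.58, 4.08 and 6.87 CPM with empty vector and at 49.9, 51.2 and 44.4 CPM with RAS. The groups were again well apart, and the EV libraries lay below those of the S6K1 series. Lif rose 9.32-fold here (log2 3.22 ± 0.31, SE, adjusted p = 0.000205). The log2 difference between the RAS effects of the 2 series was 1.22 ± 0.43 (SE, higher in the S6K1/S6K2 series), which did not pass in a fit of all 18 libraries (adjusted p = 0.297 by edgeR, unadjusted p = 0.0116).

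Il11, a cytokine with a well known part in fibrosis, was scarce in every EV library and rose with RAS. It was at 2.06, 1.97 and 1.66 CPM in S6K1 WT EV and at 5.41, 7.96 and 8.54 CPM in S6K1 WT RAS. S6K1/S6K2 WT EV had it at 2.04, 2.17 and 2.49 CPM, and in S6K1/S6K2 WT RAS at 10.3, 13.3 and 8.03 CPM. The groups did not overlap in either series; over all genes 16.1% were higher without overlap in the S6K1 series and 21% (21.5% lower) in the S6K1/S6K2 series. The rise was 3.80-fold (log2 1.93 ± 0.24, SE, adjusted p = 0.00111) and 4.68-fold (log2 2.23 ± 0.25, SE, adjusted p = 0.000392).

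Il6, the founding member of the family and a classical SASP factor in other settings, stayed near the bottom of the detectable range. It had between 4 and 48 counts in the 18 libraries. In the S6K1 series it was at 3.20, 2.12 and 4.42 CPM with empty vector and at 2.84, 2.25 and 1.77 CPM with RAS, and the groups overlapped (log2 -0.52 ± 0.37, SE, adjusted p = 0.419). The S6K1/S6K2 series had it at 0.509, 0.347 and 4.04 CPM with empty vector and at 2.52, 0.471 and 2.64 CPM with RAS. Replicate 3 of the EV group and replicate 2 of the RAS group stood apart from the others of their groups, and the log2 fold change of 0.22 had a 95% interval from -1.68 to 2.12 (adjusted p = 0.872). Without S6K1/S6K2 WT EV replicate 3 it was 2.12 (adjusted p = 0.0547). In the S6K1 series the 95% interval of Il6 ran from -1.35 to 0.31, so that a rise as large as that of Lif or Il11 there lay outside it. No difference of Il6 between EV and RAS was detectable in the S6K1/S6K2 series at this depth and spread.

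Clcf1 did not pass in either series. It was at 13.2, 13.9 and 13.2 CPM in S6K1 WT EV and at 9.84, 11.1 and 12.9 CPM in S6K1 WT RAS, groups that did not overlap (log2 -0.26 ± 0.16, SE, adjusted p = 0.35). Among all genes tested in that comparison, 14.7% were lower without overlap and 16.1% higher. Its levels in the S6K1/S6K2 series, 18.9 to 22.4 CPM with empty vector and 17.97 to 21.2 CPM with RAS, overlapped (log2 -0.08, adjusted p = 0.718).

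**Figure D2:**
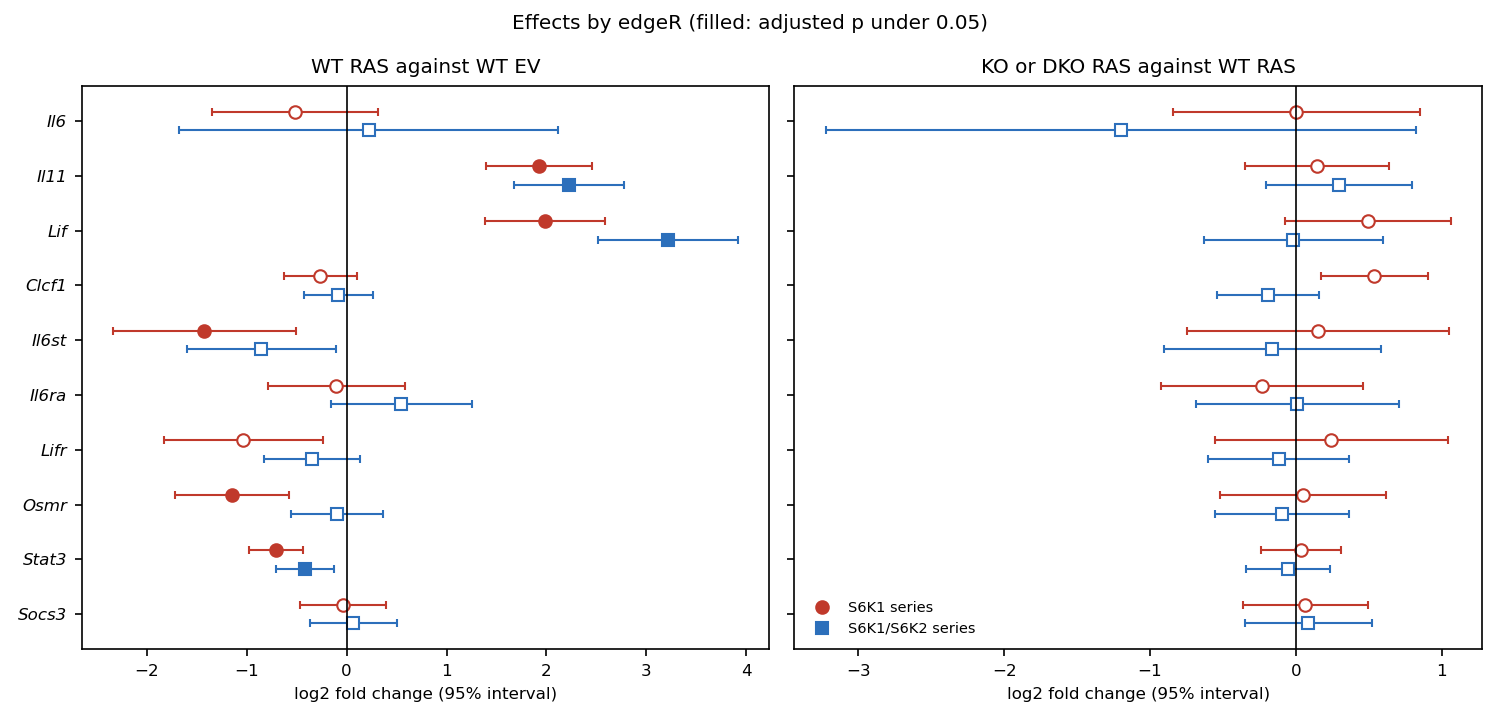
Log2 fold changes of the 10 genes by edgeR with 95% intervals, on the left for WT RAS against WT EV and on the right for KO or DKO RAS against WT RAS; circles are the S6K1 series, squares the S6K1/S6K2 series, and filled symbols passed the threshold. Filled symbols occur only in the left panel, for Il11, Lif and Stat3 in both series and for Il6st and Osmr in the S6K1 series.

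Il6st, whose product gp130 is the signalling chain common to the family, was lower with RAS in the S6K1 series. It was at 469, 638 and 1019.5 CPM in S6K1 WT EV and at 181, 239 and 378 CPM in S6K1 WT RAS. The groups did not overlap although each spread widely, and replicate 3 was the highest of each. Il6st fell to 0.372 of its EV level (log2 -1.43 ± 0.41, SE, adjusted p = 0.0484). With the replicate number as a block the same difference was -1.42 ± 0.08 (SE, adjusted p = 2.2e-06). Without the block the call was lost when S6K1 WT EV replicate 2 (adjusted p = 0.0948), S6K1 WT EV replicate 3 (0.156), S6K1 WT RAS replicate 1 (0.152) or S6K1 WT RAS replicate 2 (0.163) was left out.

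Il6st in the S6K1/S6K2 series was at 346, 792 and 832 CPM with empty vector and at 372, 355 and 364 CPM with RAS. The EV replicate 1 lay among the RAS libraries and the other two EV libraries lay well above them. The log2 fold change of -0.85 ± 0.34 (SE) missed the threshold (adjusted p = 0.0866). Without S6K1/S6K2 WT EV replicate 1 it was -1.16 and passed (adjusted p = 0.0117). That library was high in macrophage markers and also had the highest sum of fibroblast markers of all libraries, 46866 CPM. The part of either in its Il6st level was not tested.

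Osmr, the oncostatin M receptor, was lower with RAS in the S6K1 series. It was at 319.6, 330.2 and 416 CPM in S6K1 WT EV and at 125, 158 and 202 CPM in S6K1 WT RAS, with a wide gap between the groups. Osmr fell to 0.451 of its EV level (log2 -1.15 ± 0.26, SE, adjusted p = 0.0176). With the replicate number as a block the same difference was -1.17 ± 0.10 (SE, adjusted p = 1.69e-05), where 36.2% of genes passed. Without the block the call was lost when S6K1 WT EV replicate 3 (adjusted p = 0.0584), S6K1 WT RAS replicate 1 (0.0634) or S6K1 WT RAS replicate 2 (0.0742) was left out.

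Osmr in the S6K1/S6K2 series was at 198, 249 and 326 CPM with empty vector and at 243, 240.3 and 242 CPM with RAS. The RAS libraries sat in the middle of the EV range (log2 -0.10 ± 0.21, SE, adjusted p = 0.76). The difference between the 2 series was 1.04 ± 0.34 on the log2 scale (SE, adjusted p = 0.277) and passed with the replicate number as a block (1.102 ± 0.19, SE, adjusted p = 0.0432), where 0.4% of 14483 genes passed. That block also takes in the DKO RAS libraries, which share only a number with the WT cultures.

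Lifr, which pairs with gp130 for LIF and CLCF1, followed Il6st and Osmr less firmly. It was at 45.6, 44.8 and 69.8 CPM in S6K1 WT EV and at 19.2, 20.2 and 39.3 CPM in S6K1 WT RAS, groups that did not overlap. The log2 fold change of -1.03 ± 0.35 (SE) missed the threshold (adjusted p = 0.092) and passed with the replicate number as a block (-1.08 ± 0.11, SE, adjusted p = 5.3e-05), where 36.2% of genes passed. It also passed without S6K1 WT RAS replicate 3 (-1.47, adjusted p = 0.0192). Its levels in the other series, 41.7 to 66.3 CPM with empty vector and 34.9 to 53.1 CPM with RAS, overlapped (log2 -0.35, adjusted p = 0.256).

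Il6ra, the IL-6 binding chain, showed no call. It was at 7.45 to 16.9 CPM in S6K1 WT EV and at 9.83 to 14.1 CPM in S6K1 WT RAS (log2 -0.10, adjusted p = 0.868). The S6K1/S6K2 series had it at 9.50, 3.73 and 6.19 CPM with empty vector and at 9.67, 10.2 and 8.66 CPM with RAS (log2 0.55, adjusted p = 0.222). Without S6K1/S6K2 WT EV replicate 1 the latter was 0.94 and passed (adjusted p = 0.0395). Il6ra is also made by macrophages, and within the S6K1/S6K2 WT EV group replicate 1 was the highest both in Il6ra and in macrophage markers. In each of the other groups replicate 2 was the highest in Il6ra and replicate 1 in macrophage markers. The part of such cells in the Il6ra values was not tested.

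Stat3 was the only signalling member to pass in both series. It was at 297, 321 and 303 CPM in S6K1 WT EV and at 176, 191 and 203 CPM in S6K1 WT RAS, tight groups with a clear gap. Stat3 fell to 0.612 of its EV level (log2 -0.71 ± 0.12, SE, adjusted p = 0.00522). S6K1/S6K2 WT EV had it at 244, 252 and 313 CPM and in S6K1/S6K2 WT RAS at 216, 195 and 196 CPM, which do not overlap but are closer together (log2 -0.42 ± 0.13, SE, adjusted p = 0.0381). That call was lost without S6K1/S6K2 WT EV replicate 2 (adjusted p = 0.0648), WT EV replicate 3 (0.0982), WT RAS replicate 2 (0.122) or WT RAS replicate 3 (0.127), and also with no filter on low counts (0.0886).

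Socs3, the feedback inhibitor that STAT3 induces, gave no call. It was at 40.2, 30.8 and 47.0 CPM in S6K1 WT EV and at 35.6, 39.4 and 40.9 CPM in S6K1 WT RAS. The S6K1/S6K2 libraries had it at 51.1, 48.8 and 58.6 CPM with empty vector and at 60.6, 54.3 and 51.7 CPM with RAS. The groups overlapped in both series, and the log2 fold changes were -0.04 (95% interval -0.47 to 0.39, adjusted p = 0.92) and 0.07 (95% interval -0.37 to 0.50, adjusted p = 0.828).

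Taking the mean RAS effect of the 2 series in a fit of all 18 libraries, 6 of the 10 genes passed, Il11 and Lif higher and Il6st, Lifr, Osmr and Stat3 lower, where 34.9% of genes were called (17.8% higher, 17.1% lower). The mean log2 effects were 2.08 ± 0.16 for Il11 and 2.62 ± 0.22 for Lif (SE, adjusted p = 1.89e-07 and 4.14e-07). They were -1.13 ± 0.28 for Il6st, -0.68 ± 0.22 for Lifr, -0.61 ± 0.17 for Osmr and -0.55 ± 0.08 for Stat3 (SE, adjusted p = 0.00528, 0.0224, 0.0106 and 8.56e-05). Without the 6 libraries highest in macrophage markers, which leaves 1 S6K1 WT EV and 1 S6K1 WT RAS library, Il11 (2.27), Lif (2.76), Il6st (-1.30) and Stat3 (-0.56) still passed. Lifr (-0.47, adjusted p = 0.259) and Osmr (-0.65, adjusted p = 0.0919) did not. The Lifr call was also lost without S6K1 WT EV replicate 3 (adjusted p = 0.0662), S6K1 WT RAS replicate 1 (0.0576), S6K1 WT RAS replicate 2 (0.0601) or S6K1/S6K2 WT RAS replicate 1 (0.056).

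Without a block, the loss of S6K1, or of both S6 kinases, changed none of the 10 genes past the threshold, and hardly any gene of the whole table. This comparison asks whether the kinases are needed for the levels that the family has under RAS. S6K1 KO RAS against S6K1 WT RAS called 0 of 10, with 1 of 10 at an unadjusted p under 0.05 (Clcf1), where 0.00712% of genes were called in all. DESeq2 also called 0 of 10. With the replicate number as a block, 1 of 10 passed there (Clcf1, adjusted p = 0.0491 by edgeR), where 4.15% of genes passed. S6K1/S6K2 DKO RAS against S6K1/S6K2 WT RAS called 0 of 10 by edgeR and by DESeq2, with 0 of 10 at an unadjusted p under 0.05, where 0.0216% of genes were called. The mean loss effect of the 2 series called 0 of 10 by both tools (0.0621% of genes in all by edgeR), with 0 of 10 at an unadjusted p under 0.05.

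Lif and Il11 were also high in the RAS cells without the kinases. Lif was at 60.9, 72.6 and 35.8 CPM in S6K1 KO RAS and at 71.7, 41.3 and 31.6 CPM in S6K1/S6K2 DKO RAS, more widely spread than in the WT RAS groups and on both sides of them. The log2 fold changes against WT RAS were 0.49 (95% interval -0.07 to 1.06, adjusted p = 0.847) and -0.02 (95% interval -0.63 to 0.60, adjusted p = 1). Il11 was at 7.62, 8.67 and 7.59 CPM in S6K1 KO RAS and at 12.1, 14.5 and 12.3 CPM in S6K1/S6K2 DKO RAS (log2 0.14 and 0.29, adjusted p = 0.997 and 1). Its 95% intervals ran from -0.35 to 0.64 and from -0.21 to 0.80, so that a drop as large as the rise with RAS lay outside the interval of either ligand in both series.

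Il6 was scarce in KO and DKO cells too. It was at 2.02, 1.53 and 3.21 CPM in S6K1 KO RAS, within the spread of S6K1 WT RAS (log2 0.00, 95% interval -0.84 to 0.85, adjusted p = 0.999). In S6K1/S6K2 DKO RAS it was at 0.982, 0.700 and 0.796 CPM, from 7 to 10 counts per library. These lay below replicates 1 and 3 and above replicate 2 of S6K1/S6K2 WT RAS, and the log2 fold change of -1.20 had a 95% interval from -3.22 to 0.82 (adjusted p = 1). A change of Il6 with kinase loss was not detectable at this depth.

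Clcf1 was the member nearest to a call. It was at 14.05, 18.2 and 16.1 CPM in S6K1 KO RAS, above the 9.84 to 12.9 CPM of S6K1 WT RAS in all 3 libraries (log2 0.54 ± 0.16, SE, adjusted p = 0.587). Of all genes tested, 3.34% were higher without overlap in this comparison and 4.61% lower. With the replicate number as a block, it passed at the edge of the threshold (0.54 ± 0.13, SE, adjusted p = 0.0491). In that fit 4.15% of all genes tested passed, made up of 0.549% higher and 3.61% lower. S6K1/S6K2 DKO RAS had it at 14.5, 19.0 and 18.03 CPM, not above all the WT RAS libraries (log2 -0.19 ± 0.16, SE, adjusted p = 1). The log2 difference between the loss effects of the 2 series was -0.70 ± 0.21 (SE, adjusted p = 1, unadjusted p = 0.00403), in a fit where 0.0069% of genes were called.

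The receptors, Stat3 and Socs3 did not pass in KO or DKO cells. Il6st was at 175, 279 and 423 CPM in S6K1 KO RAS and at 214, 311 and 452 CPM in S6K1/S6K2 DKO RAS, with replicate 3 the highest in both. Its log2 fold changes were 0.15 (95% interval -0.75 to 1.05) and -0.16 (95% interval -0.91 to 0.58). Osmr was at 122 to 225 CPM and 174 to 277 CPM, Lifr at 21.8 to 43.7 CPM and 34.9 to 49.0 CPM, and Il6ra at 7.43 to 12.8 CPM and 7.78 to 10.6 CPM in the KO and DKO groups. Stat3 had the narrowest intervals, -0.24 to 0.31 in the S6K1 series and -0.34 to 0.23 in the S6K1/S6K2 series. Socs3 was at 34.8, 35.2 and 49.5 CPM in S6K1 KO RAS and at 40.9, 63.2 and 72.9 CPM in S6K1/S6K2 DKO RAS (log2 0.07 and 0.08, adjusted p = 0.997 and 1). Macrophage markers moved with this comparison: all 10 had a negative log2 fold change in both series, with summed levels of 216 to 750.2 CPM against 623 to 3279 CPM and of 65.0 to 199.8 CPM against 156 to 841 CPM. None of the 10 passed in either series by edgeR (10 and 2 at an unadjusted p under 0.05; 1 and 0 lower by DESeq2), all 10 passed in the S6K1 series with the replicate number as a block, and their part in the values of the family genes was not tested.

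Set against the EV libraries, the RAS cells without the kinases had the same 2 ligands higher. In S6K1 KO RAS against S6K1 WT EV, Il11 (2.07 ± 0.24, SE) and Lif (2.49 ± 0.27, SE) rose and Osmr (-1.10 ± 0.25, SE) and Stat3 (-0.67 ± 0.12, SE) fell, 4 of 10 genes where 18.1% of all were called (9.55% higher, 8.56% lower). With the replicate number as a block Il6st (-1.28) and Lifr (-0.82) also passed (adjusted p = 3.27e-06 and 0.000237), where 41.1% of genes passed. Without the block Il6st missed the threshold by edgeR (adjusted p = 0.0587) and passed by DESeq2 (0.00795), with no filter on low counts (0.00604), and without S6K1 WT EV replicate 1 (0.0465) or S6K1 KO RAS replicate 3 (0.0407). The Osmr call was lost without S6K1 WT EV replicate 3 (adjusted p = 0.0523) or S6K1 KO RAS replicate 2 (0.0753). In S6K1/S6K2 DKO RAS against S6K1/S6K2 WT EV, Il11 (2.52 ± 0.25, SE) and Lif (3.20 ± 0.31, SE) rose and Stat3 (-0.47 ± 0.13, SE) fell, 3 of 10 where 25.7% of all were called (13.1% higher, 12.6% lower). Stat3 lost that call without S6K1/S6K2 WT EV replicate 3 (adjusted p = 0.0551) or without DKO RAS replicate 1 (0.0743), 2 (0.0826) or 3 (0.0508). Il6st (-1.02) missed the threshold narrowly there (adjusted p = 0.0503) and passed without S6K1/S6K2 WT EV replicate 1 (0.00623) or DKO RAS replicate 3 (0.0294). These comparisons share their EV libraries with those of WT RAS.

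Per unit of transcript length, Il6st and Osmr stood above all 4 ligands in all 6 groups, and the place of Lif in the order changed with RAS. On the scale of CPM per kb of exon, Il6st was highest in all 6 groups, at 136 ± 54.2 (SD, n = 3) in S6K1 WT EV and 51.1 ± 19.4 in S6K1 WT RAS, followed by Osmr, Stat3 and Socs3. In the S6K1/S6K2 WT EV, WT RAS and DKO RAS groups Il6st was at 126 ± 51.8, 69.8 ± 1.55 and 62.5 ± 23.0 CPM per kb (SD, n = 3). In S6K1/S6K2 DKO RAS the neighbours Stat3 (20.5 ± 0.97 CPM per kb, SD) and Socs3 (20.4 ± 5.67) did not differ beyond their spread. The spreads (mean ± SD) of Il6st and Osmr overlapped in S6K1 WT EV, S6K1 WT RAS, S6K1 KO RAS and S6K1/S6K2 DKO RAS. Even so, Il6st was above Osmr within every library of these groups. Lif was 9th of 10 in S6K1 WT EV (2.33 ± 0.55 CPM per kb, SD) and 10th in S6K1/S6K2 WT EV (1.19 ± 0.34), and 5th in all 4 RAS groups (9.38 ± 0.38, 12.97 ± 4.33, 11.2 ± 0.83 and 11.1 ± 4.81). By group mean Il11 was 6th in all 4 RAS groups, and Il6 was last of the 10 in each of them. These places do not hold in every library: Il11 was above Lif in replicates 2 and 3 of S6K1/S6K2 DKO RAS (10.99 against 9.49 and 9.32 against 7.26 CPM per kb), and Lifr was below Il6 in replicates 1 and 2 of S6K1 WT RAS (1.85 against 2.61 and 1.95 against 2.07 CPM per kb). Lif was above Il6 in replicates 1 and 2 of S6K1/S6K2 WT EV (1.05 against 0.468 and 0.937 against 0.319 CPM per kb). The same held in replicate 2 of S6K1 WT EV (2.78 against 1.95 CPM per kb). In S6K1 WT EV the neighbours Lifr (5.17 ± 1.38 CPM per kb, SD) and Il6ra (3.81 ± 1.44) did not differ beyond their spread, nor did Il6ra and Clcf1 (3.61 ± 0.12).

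The ratio of Lif to Lifr per unit length shows this change in each library. It was 0.563, 0.642 and 0.253 in S6K1 WT EV and 5.28, 4.78 and 2.37 in S6K1 WT RAS. In S6K1/S6K2 WT EV it was 0.174, 0.232 and 0.246, and in S6K1/S6K2 WT RAS 3.40, 2.61 and 1.99. The 6 KO and DKO libraries spanned 1.53 to 6.62. Per unit length, Lifr was above Lif in all 6 EV libraries and Lif was above Lifr in all 12 RAS libraries. The latter rests on the exon lengths used, 10330 bases for Lifr and 4350 for Lif. In CPM, Lif was above Lifr in replicates 1 and 2 of every RAS group and below it in replicate 3 of each. The gap in replicate 3 ran from 39.2 against 39.3 CPM (S6K1 WT RAS) to 31.6 against 49.0 CPM (S6K1/S6K2 DKO RAS). The ratio is a description, built from values tested above.

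**Figure D3:**
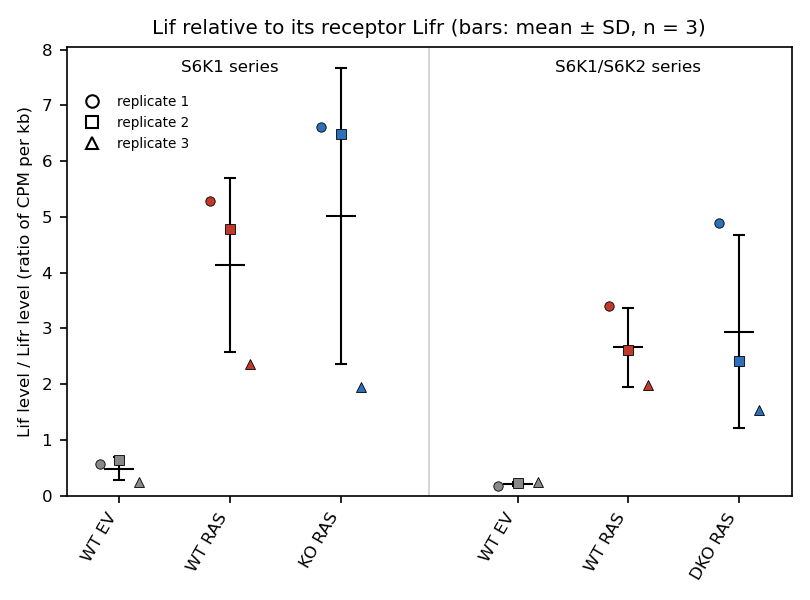
Ratio of the level of Lif to that of Lifr, each in CPM per kb of exon, for every library by group (symbols mark the replicate number, bars the mean ± SD of 3 libraries). The 6 EV libraries lie between 0.174 and 0.642 and the 12 RAS libraries between 1.53 and 6.62.

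Of the other ligands of the family, few were expressed. Cntf, Il27, Il31 and Ctf2 had no library above 0.393 CPM, Ctf2 with no count in any. Ctf1, cardiotrophin-1, fell in the S6K1/S6K2 series (log2 -1.64, adjusted p = 0.0116) and was at 3.90 to 7.18 CPM in the S6K1 WT libraries.

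Osm and Ebi3, the latter a subunit of IL-27, were highest in libraries high in macrophage markers. Osm was at 1.60 and 3.38 CPM in S6K1 WT RAS replicates 1 and 2 and at 0 to 0.690 CPM in the other 16 libraries. Ebi3 was at 1.68 to 4.27 CPM in the 6 libraries with the most macrophage marker counts and at 0 to 1.104 CPM in the other 12. Both genes are known products of myeloid cells, and the part of such cells in these values was not tested. Osm, the ligand of Osmr, had no count in any of the 3 DKO RAS libraries, which allows up to 3 counts each. It also had none in replicates 2 and 3 of S6K1/S6K2 WT RAS, nor in replicate 3 of S6K1/S6K2 WT EV, S6K1 WT EV and S6K1 KO RAS.

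**Figure D4:**
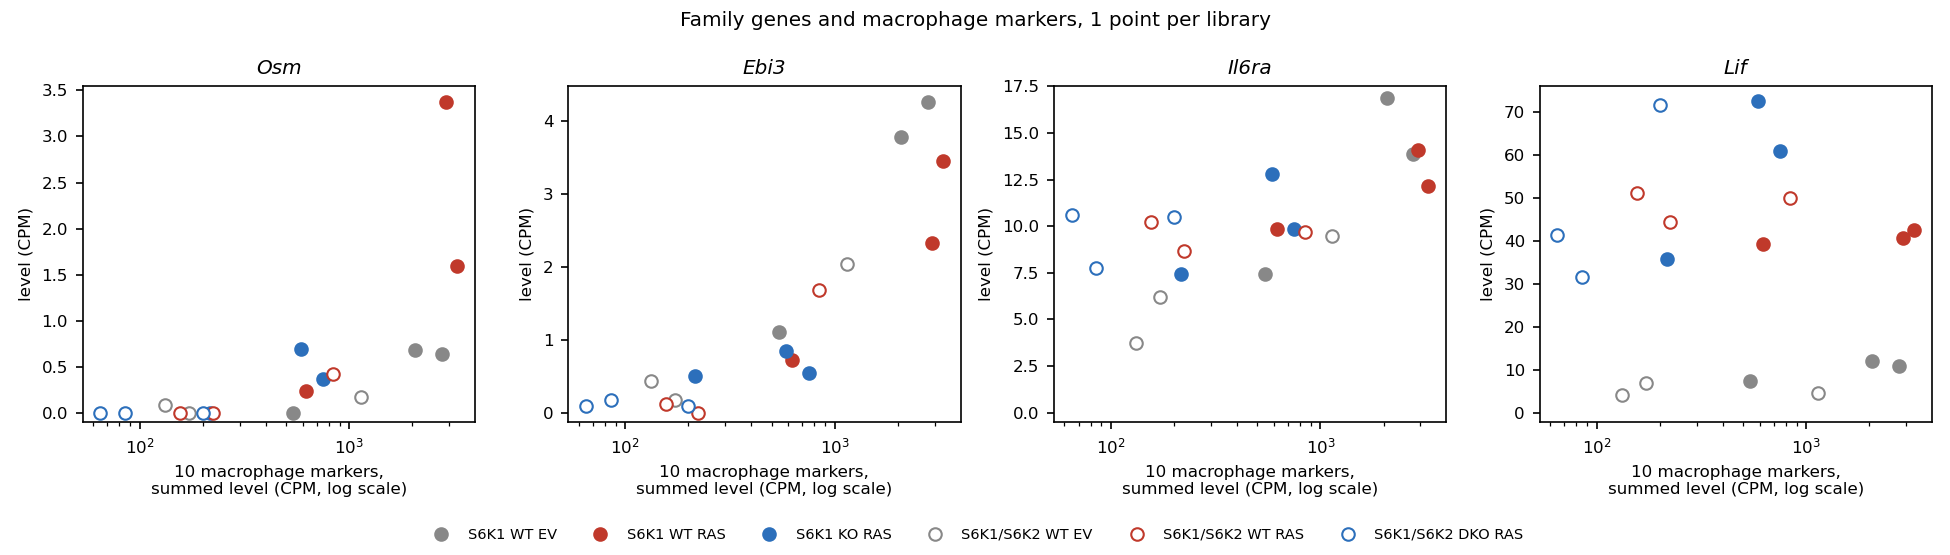
Levels of Osm, Ebi3, Il6ra and Lif (CPM) against the summed level of 10 macrophage markers (CPM, log axis), 1 point per library, coloured by group and filled for the S6K1 series. The 6 libraries with 841 CPM of markers or more hold the highest Ebi3 values, while Lif separates EV from RAS libraries at any marker level.

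Of the 5 other receptors, 3 were tested in each series. Il11ra1, the IL-11 receptor chain, fell where Il11 rose: from 42.1, 41.0 and 48.0 CPM to 31.9, 28.4 and 25.0 CPM in the S6K1 series (log2 -0.64, adjusted p = 0.0153). It went from 173, 96.7 and 52.0 CPM to 29.8, 27.1 and 26.5 CPM in the S6K1/S6K2 series (log2 -1.96, adjusted p = 0.00569). The 3 EV libraries of that series were spread widely, with replicate 1 the highest, and the 3 RAS libraries lay close together. The mouse genome holds a near copy, Il11ra2, which was not analysed here, so reads may be shared between them. Cntfr, the binding chain for CNTF and CLCF1, rose in the S6K1/S6K2 series from 3.65 to 5.50 CPM with empty vector to 9.15 to 10.6 CPM with RAS (log2 1.16, adjusted p = 0.0096) and did not pass in the S6K1 series (8.10 to 18.5 and 11.8 to 16.9 CPM). Il27ra was at 0.763 to 3.40 CPM and Il31ra at 0 to 1.06 CPM in all libraries.

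Among the 8 kinases and other signalling genes, none passed in the S6K1 series by edgeR, with 2 at an unadjusted p under 0.05 and 1 lower by DESeq2. With the replicate number as a block 3 were lower, where 18.1% of all genes were lower. In the S6K1/S6K2 series Jak2, a receptor-bound kinase, rose (log2 0.70, adjusted p = 0.00624), and 2 genes fell, among them the adaptor gene Gab1 (-0.77, adjusted p = 0.0035). That makes 1 of 8 higher and 2 of 8 lower, where 13.5% and 12.7% of all genes were called. Of the 8 negative regulators and sheddases, Socs2 rose in the S6K1 series (0.93, adjusted p = 0.00938) and Socs1 fell in the S6K1/S6K2 series (-1.83, adjusted p = 0.0046). The other 7 in each series did not pass. With the replicate number as a block the S6K1/S6K2 series had 2 of the kinases and signalling genes higher and 4 lower, and 2 of the negative regulators lower, where 28.7% of all genes passed. The S6K1 series had 1 negative regulator higher and 1 lower in that fit, where 18.1% of all genes were higher and 18.1% lower.

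Of the 16 genes known as STAT3 targets, 14 were tested in each series, and those that passed by edgeR without a block were all higher with RAS. Bcl2l1, an inhibitor of apoptosis, rose in both (log2 0.83, adjusted p = 0.00275 in the S6K1 series and 1.26, adjusted p = 0.000167 in the S6K1/S6K2 series). Ccnd1, the cyclin D1 gene, also rose in both (1.02, adjusted p = 0.00538 and 1.25, adjusted p = 0.00463). In the S6K1/S6K2 series Myc (1.23, adjusted p = 0.0187), the kinase gene Pim1 (1.86, adjusted p = 0.000257), the interleukin-4 receptor gene Il4ra (1.12, adjusted p = 0.00416) and the protease inhibitor gene Timp1 (0.91, adjusted p = 0.0424) rose as well. That makes 2 of 14 and 6 of 14 higher and 0 lower in either, with median log2 fold changes of 0.21 and 0.55, where 7.15% and 13.5% of all genes were higher. DESeq2 called 4 higher and 0 lower in the S6K1 series, and 7 higher and 1 lower in the S6K1/S6K2 series. With the replicate number as a block the S6K1 series had 6 higher and 1 lower, where 18.1% of all genes were higher and 18.1% lower, and Timp1 missed the threshold in the S6K1/S6K2 series (adjusted p = 0.0651). Many of these genes also answer RAS through other factors. Among 8 regulators of Il6 mRNA, which include NF-kappaB subunits and RNA-binding proteins, none passed in the S6K1 series (0 at an unadjusted p under 0.05, 0 by DESeq2). Blocking by replicate number gave 2 higher there, where 18.1% of all genes were higher. Nfkbiz rose in the S6K1/S6K2 series (1.17, adjusted p = 0.0321). Kinase loss called 0 genes of these lists in either series by edgeR or DESeq2, with 3 genes in the S6K1 series and 1 (Cntfr, log2 -0.64) in the S6K1/S6K2 series at an unadjusted p under 0.05. Among the 3 were Ebi3 (-1.71) and Ptpn6 (-2.18), a phosphatase gene of blood cells, named after their values were seen. All 3 passed with the replicate number as a block, Ebi3 and Ptpn6 with an adjusted p of 0.0402 and 0.000231, where 4.15% of all genes passed, and the third was one of the kinases and other signalling genes. In the same comparison all 10 macrophage markers had negative log2 fold changes, whose part in these values was not tested.

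Across the 18 libraries the genes most like each of 4 members in pattern were ranked by Pearson's r of log2 CPM, over 9829 or 9830 genes with a mean of at least 100 counts. For Lif these were Ccbe1 (0.987), Itga6 (0.986) and Ier3 (0.983), and for Il11 Unc13c (0.976), Neto2 (0.976) and Slc25a37 (0.975). For Socs3 they were H19 (0.895), Ppox (0.894) and Polr3gl (0.892), and for Il6 Surf4 (0.868), Acta2 (0.860) and Hoxb8 (0.857). The libraries share groups and series, so these are descriptions of pattern, and the weaker values for Il6 rest on few counts.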

How the data were processed

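Poly(A) RNA of 18 MEF libraries had been sequenced by the authors with a stranded kit and single-end reads. They deposited raw counts per gene, identified by Ensembl number. The submitters' processing notes name CASAVA, STAR 2.7.1a, DESeq2 1.28.1 and build mm10, whereas the study's methods name TopHat, HTSeq and mm9; which of them made the deposited counts is not settled. Identifiers were matched to mouse symbols without their version (32589 of 55401, holding 99.14% of counts), and no column was left unused. Groups came from the sample titles and characteristics.

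Each series was fitted over its 9 libraries with edgeR 4.0.16 (R 4.3.3; TMM scaling, filterByExpr with a minimum count of 10, glmQLFit and glmQLFTest, two-sided), and all 18 libraries together for means of, and differences between, the series. SE is the absolute log2 fold change divided by the square root of F, and 95% intervals use the t distribution with the fit's degrees of freedom. The scripts were tested on simulated data. No 2 replicates of a group agreed within sampling noise (chi-square per gene at least 7.98). The 10 genes, the gene lists and the motifs were chosen with earlier results of these data known; genes of the lists were named where they passed in a comparison within a series or encode a ligand or receptor. Some genes of the lists are not reported here.

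Alternatives were DESeq2 1.42.0, its size factors, upper-quartile scaling, other filters, the 6 compared libraries alone, each library left out, and the replicate number as a block. That block was used beside the results where same-numbered cultures deviated together: the correlation of their deviations from the group means was 0.293 to 0.692 for WT EV with WT RAS in both series and for S6K1 WT RAS with S6K1 KO RAS, and 0.489 to 0.646 for S6K1 WT EV with S6K1 KO RAS. It was -0.0351 to 0.454 for S6K1/S6K2 WT RAS with DKO RAS and -0.118 to 0.295 for S6K1/S6K2 WT EV with DKO RAS, which share only a number. Every blocked fit of the S6K1/S6K2 series or of all 18 libraries nonetheless holds the DKO RAS libraries under the same numbers. The fit without the 6 libraries highest in macrophage markers was added after seeing the data. Exon lengths came from GENCODE vM1 on NCBIM37, matched by identifier; promoter sequences and gene positions came from RefSeq on GRCm38.p6, with no coordinates carried between builds. Levels rest on 8319445 to 14402442 counts per library, and the floor covers counting error only.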

Additional observations from a re-analysis of the deposited data

Results flagged for a closer look

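The effect of RAS on Osmr differed between the 2 series when the replicate number was a block in the fit of all 18 libraries: the log2 difference, S6K1/S6K2 series minus S6K1 series, was 1.102 ± 0.19 (SE, adjusted p = 0.0432 by edgeR). Osmr was lower in RAS than in EV cultures of the same number in 3 of 3 pairs of the S6K1 series (log2 differences of -1.35, -1.06 and -1.04) and in 2 of 3 pairs of the S6K1/S6K2 series (0.29, -0.05 and -0.43). Without the block the difference was 1.04 ± 0.34 (SE, adjusted p = 0.277). The blocked fit also takes in the DKO RAS libraries, which share only a number with the WT cultures.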

How the results depend on the processing

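With the replicate number as a block, 1 of the 10 genes was called for S6K1 loss (Clcf1) and 1 for the difference in RAS effect between the series (Osmr), where none was called without it. For S6K1/S6K2 DKO RAS against WT EV, whose numbers do not pair, the block added Il6st (-1.002, adjusted p = 0.0267); for DKO RAS against WT RAS it changed no call. Leaving out each library in turn gave 3 to 6 genes called for RAS in the S6K1 series, 2 to 5 for RAS in the S6K1/S6K2 series and 2 to 5 for S6K1/S6K2 DKO RAS against WT EV. The count was 3 without S6K1 WT EV replicate 3, S6K1 WT RAS replicate 1 or S6K1 WT RAS replicate 2, and 5 without S6K1/S6K2 WT EV replicate 1, in each comparison that uses it. The effect of S6K1 loss on Il6, 0.00 in the report, was -0.00595 by DESeq2 and -0.00595 with its size factors, -0.021 with upper-quartile scaling, -0.00462 under the minimum of 10 counts per library, -0.031 when blocked by replicate number and -0.019 with the 6 compared libraries alone.

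Directions that turned when 1 library was left out all belonged to effects that were not called. For RAS they ranged from -0.37 to 0.16 (Il6ra) and -0.18 to 0.11 (Socs3) in the S6K1 series, and from -0.26 to 2.12 (Il6), -0.25 to 0.12 (Osmr) and -0.0062 to 0.16 (Socs3) in the S6K1/S6K2 series. For loss in the S6K1 series they ranged from -0.33 to 0.22 (Il6), -0.037 to 0.29 (Il11), -0.20 to 0.52 (Il6st), -0.09 to 0.68 (Lifr), -0.23 to 0.26 (Osmr), -0.028 to 0.12 (Stat3) and -0.12 to 0.14 (Socs3). In the S6K1/S6K2 series they ranged from -0.42 to 0.21 (Lif), -0.48 to 0.068 (Il6st), -0.069 to 0.14 (Il6ra), -0.26 to 0.021 (Lifr), -0.27 to 0.069 (Osmr), -0.092 to 0.00064 (Stat3) and -0.10 to 0.29 (Socs3).

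Lifr in the S6K1 series and Il6st in the S6K1/S6K2 series also passed for RAS with DESeq2 (adjusted p = 0.0285 and 0.0388) and with no filter (0.0195 and 0.01). Il6st in the S6K1 series missed the threshold with at least 10 counts in every library (0.054) and with the 6 compared libraries alone (0.0559), as did Stat3 in the S6K1/S6K2 series with those 6 (0.0847). The causes were not tested. Of 389 single-gene values under the alternatives other than leaving out 1 library, 360 kept direction and side of the threshold, 8 lost the call, 15 gained it and 6 turned. The Il6 effect in the S6K1/S6K2 series could not be refitted with at least 10 counts in every library, a minimum it does not reach. Depth limits Il6, with as few as 4 counts in a library, and Osm, Ebi3, Il27, Il31 and Cntf.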
